A study of Etheostoma caeruleum with 31 samples.

Results

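Testis regrowing in autumn was set against breeding testis in the rainbow darter (Etheostoma caeruleum), a small stream fish. The comparison rests on 12 arrays of 31 in the series, chosen by their titles alone: 5 recrudescence arrays from adult males caught in October 2011 and 7 spawning arrays from adult males caught in May 2011. All were wild fish taken by electrofishing in a stretch of the Grand River, Ontario, that the submitters call clean, and no group received a treatment. The other arrays, from August 2011 (post-spawning, 6 arrays), January 2012 (developing, 6 arrays) and March 2012 (pre-spawning, 7 arrays), entered the shared fit and served as outside reference points. Each stage is a single month of collection, so that reproductive state, season, water temperature and collection day cannot be told apart. The labels call the arrays of a stage biological replicates and do not say whether an array holds RNA of 1 fish.

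In seasonally breeding fish the testis is rebuilt every year. Spermatogonia divide and then enter meiosis inside cysts that Sertoli cells enclose, the resulting spermatids mature into sperm, and Leydig cells make the androgens that drive the process. Recrudescence is the phase in which this regrowth starts after the gonad has regressed, and at spawning the tissue is dominated by ripe sperm. RNA of a whole organ mixes all of these cells, so that fewer cells of a type and less RNA per cell cannot be told apart in what follows. The files identify probes and do not pair them with genes. Groups of probes are therefore described by size, level and course over the year, and the testis label could not be checked against marker genes.

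The arrays of the 2 stages were of like quality. The 75th percentile of the spot intensity ran from 3100 to 4473 on the recrudescence arrays and from 2734 to 4461 on the spawning arrays. The share of probes well above background ran from 85.8% to 90.6% in recrudescence and from 78.0% to 92.6% in spawning. The lowest share, 78.0%, was that of spawning replicate 7. Correlations across probes were at least 0.976 within recrudescence and 0.964 within spawning, and lay between 0.959 and 0.972 for an array of one stage with an array of the other. The highest correlation of 2 arrays of a stage was 0.985.

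October testis differed from May testis at many probes, mostly by small amounts. Of 8638 probes tested, 1278 were higher and 1134 lower in recrudescence by limma's test with Benjamini-Hochberg adjustment at 0.05, 27.9% of all in either direction (14.8% higher and 13.1% lower), and 6226 did not pass. The median difference among the higher probes was 0.64 on the log2 scale, or 1.56-fold, and among the lower ones -0.56, or 1.47-fold. At least 2-fold differences were found for 425 of them (4.92% of the probes tested), 261 higher (3.02%) and 164 lower (1.90%). At least 4-fold differences numbered 28 and 13, and at least 8-fold differences 5 and 2. Differences of 2-fold or more were more often excesses than deficits in October, except with spike-in scaling (110 higher and 128 lower). Among those well above background on all 12 arrays the numbers were closer, 132 excesses and 119 deficits. The lean towards excesses therefore lay mostly in probes not detected on every array. Under spike-in scaling only 313 probes passed, 238 of them by 2-fold or more, so that most of the small differences were not called. The overall balance depended on the scale, with 1167 higher and 1266 lower when arrays were centred on their median. Over all tested probes the median difference was -0.0039 and the median absolute difference 0.29, beside a median SE of 0.18.

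Single arrays were separated at fewer probes than the counts of calls. All 5 October arrays lay above all 7 May arrays for 610 probes and below all of them for 509, together 13.0% of those tested, and 1072 of these 1119 also passed the threshold. The remaining 1340 called probes overlapped with the other month on at least 1 array. The number of calls was 1269 without slide 3, which holds 2 arrays of each stage, and between 1760 and 2001 without slide 1, 2 or 4. On the slides that hold both stages, the probes called from the other slides mostly kept their direction. Of the probes called without slide 3, 95.1% lay on the same side on slide 3 itself. The corresponding shares were 91.1% for slide 1, with 2 recrudescence arrays and 1 spawning array, and 91.0% for slide 2, with 1 and 2. Of all tested probes, 48.8% were higher in October on slide 3, 55.1% on slide 1 and 46.4% on slide 2.

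**Figure D1:**
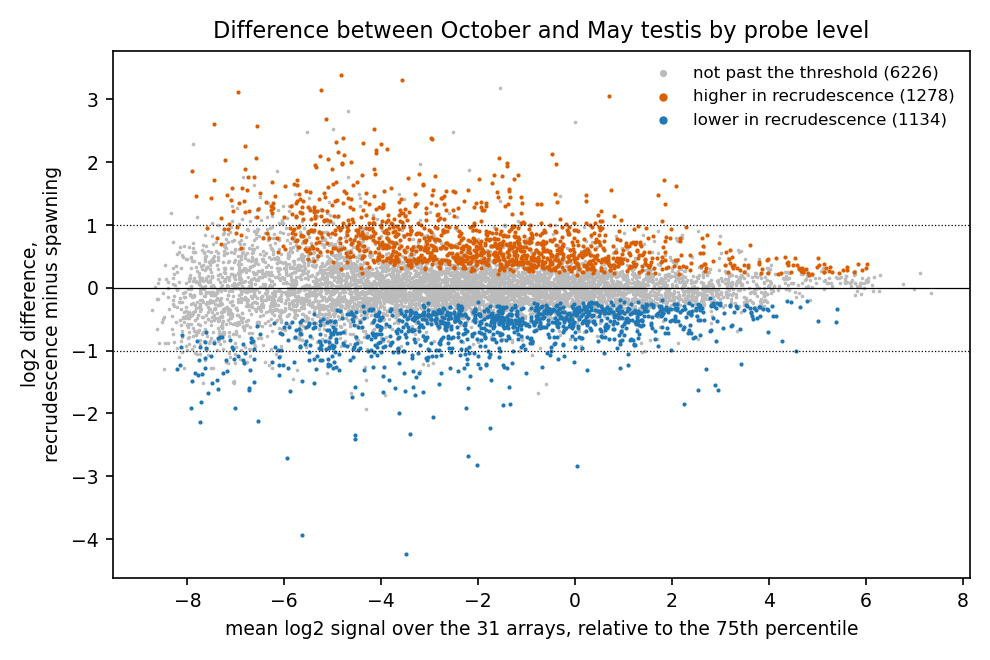
Each point is 1 of 8638 probes, placed by its mean log2 signal over the 31 arrays (horizontal axis, relative to each array's 75th percentile) and by its log2 difference between recrudescence and spawning (vertical axis). Orange points (1278) were higher and blue points (1134) lower in recrudescence at an adjusted p under 0.05, and dotted lines mark 2-fold. Most called points lie inside the dotted lines, and points outside them occur at all but the highest levels.

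Calls were spread over all levels of signal, and more of the 2-fold differences lay among dim probes than among bright ones. With the tested probes ordered by level and divided into 5 bins of equal size, 16.9% were called in the dimmest bin and 27.4% to 32.5% in the others. That dimmest bin held 87 of the 261 excesses of 2-fold or more and 59 of the 164 such deficits, while the brightest held 14 and 11. Dim probes also varied more between arrays. The median SD over the October arrays was 0.47 in the dimmest bin and 0.18 in the brightest, and over the May arrays 0.56 and 0.17. Of all 8638 tested probes 6956 were well above background on all 12 arrays, and of the 2412 called probes 2113. The shares were smaller among differences of 2-fold or more, with 132 of the 261 excesses and 119 of the 164 deficits. For 10 of these excesses and 17 of these deficits no array of the dimmer stage had the probe well above background, so that its fitted difference is no measured fold.

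The 100 brightest probes, a group looked at after the plot of differences by level was seen, leaned towards small excesses. Among them 26 were higher in October and 4 lower, against backgrounds of 14.8% and 13.1%, and 0 of the 100 differed by 2-fold. Their differences ran from -0.54 to 0.47 on the log2 scale. With arrays centred on the median 16 were higher and 4 lower, with quantile normalisation 13 and 6, and with spike-in scaling 0 passed in either direction. The lean was not shared by the whole brightest of the 5 bins, where 244 probes (14.1%) were higher and 298 (17.2%) lower. With quantile normalisation that bin had 252 higher and 247 lower. Of the summed signal of an array, 32.0 ± 1.12% (SD, n = 5) in October and 30.4 ± 1.65% (n = 7) in May came from its 100 brightest probes. This share did not pass an exact permutation test (difference 1.62 percentage points, two-sided p = 0.0922, adjusted p = 0.154 over 5 measures of whole arrays).

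Few probes were detected in 1 of the 2 stages alone. A single probe was well above background on every October array and on no May array. It was 4.87-fold higher in October when each May value was set no lower than its array's lowest signal well above background. Its fitted difference had an adjusted p of 0.0282 in limma's test. The probe was picked by its detection on these same arrays, so that this p is no separate support. For 0 probes was the reverse found. Where all spots of a probe had to be well above background, 0 probes were left in either direction. Of the 8638 tested probes, a looser count gave 8 well above background on at least 3 October arrays and on no May array. It gave 23 on at least 4 May arrays and on no October array. These 2 counts cannot be compared directly, since the first requires absence from 7 arrays and the second from 5.

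The 2 largest October deficits at probes well above background on all 12 arrays separated every array of the 2 months. Probe GT_EA516_an_s_sp_4398 had log2 signals relative to the 75th percentile of -6.29, -5.99, -5.84, -6.69 and -5.55 on the 5 October arrays. On the 7 May arrays its signal ran from -2.61 through a median of -1.81 to -0.94. Every October array lay below every May array, with a gap wider than the range within either month. In intensity these levels were 37.1 to 95.4 in October and 447 to 2051 in May. The fitted difference was -4.24 ± 0.26 (SE) on the log2 scale, an 18.9-fold deficit with an adjusted p of 5.13e-12 in limma's test. Within slides the difference was -4.11 on slide 1, -4.14 on slide 2 and -3.69 on slide 3. Every named probe was chosen to keep 1 direction on these slides. With normexp background correction the difference was -3.13, still past the threshold.

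The course of this probe over the year had its minimum in October. Its mean was -6.07 ± 0.44 (SD, n = 5) in October and -1.84 ± 0.62 (n = 7) in May. In August it was -4.23 ± 0.37 (n = 6), in January -4.17 ± 0.29 (n = 6) and in March -2.05 ± 0.45 (n = 7). The differences from March, whose means hold no October or May array, were -2.18 ± 0.25 (SE, adjusted p = 4.62e-09) in August and -2.12 ± 0.25 (adjusted p = 6.18e-08) in January. Their SE and adjusted p came from limma's shared fit of all 31 arrays. The March mean lay within 1 SD of the May mean. Its 2 spots on an array differed by a median of 0.097 on the log2 scale.

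The second deficit belonged to probe GT_EA516_an_s_xh_391, a brighter feature. Its log2 signals were -1.73, -1.60, -1.82, -1.10 and -1.56 in October and ran from 0.52 through a median of 1.39 to 1.94 in May. No October array reached the lowest May array. The fitted difference was -2.84 ± 0.23 (SE), a 7.14-fold deficit with an adjusted p of 2.54e-09, and it was -2.98, -2.75 and -2.42 on slides 1, 2 and 3. This probe too was lowest in October. Its mean was -0.30 ± 0.40 (n = 6) in August, -0.89 ± 0.36 (n = 6) in January and 1.06 ± 0.45 (n = 7) in March, and the fitted differences from March were -1.35 ± 0.22 (SE) in August and -1.95 ± 0.22 in January, both past the threshold.

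The 2 largest excesses under the same criteria separated the arrays less well. Probe GT_EA516_un_s_sp_30904, with 1 spot on the array, had log2 signals of -0.87, -0.77, -1.30, -0.91 and -1.94 in October. In May its signal ran from -4.80 through a median of -3.33 to -2.41. The months did not overlap, but the May arrays were spread widely, with an SD of 0.84 against 0.48 in October. The fitted difference was 2.39 ± 0.37 (SE), a 5.25-fold excess with an adjusted p of 2.56e-05, and it was 1.54, 3.33 and 2.96 on slides 1, 2 and 3. The high level of autumn carried on into winter, since its mean was -1.71 ± 0.74 (n = 6) in January, above the -3.42 ± 0.57 (n = 7) of March by 1.71 ± 0.35 (SE). August stood apart with the lowest mean of the year, -4.57 ± 0.46 (n = 6), which was below March by a difference of -1.15 ± 0.35 (SE, adjusted p = 0.00413).

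Probe GT_EA516_un_as_sp_15814 showed the largest excess of those detected on each of the 12 arrays and also the widest variation between arrays. Its log2 signals were 4.59, 0.48, 4.10, 4.73 and -0.38 in October. In May they ran from -2.51 through a median of -0.92 to 4.54. Replicates 1, 3 and 4 of October were high, replicates 2 and 5 were at the level of the upper May arrays, and 1 May array, replicate 6, was as high as the high October arrays. In intensity the May arrays ranged from 613 to 104030. The fitted difference was 3.05 ± 1.04 (SE), or 8.29-fold, with an adjusted p of 0.0277, and it was 4.03, 0.98 and 5.75 on slides 1, 2 and 3. The call was not stable: the adjusted p rose to between 0.0543 and 0.0938 when October replicate 1, 3 or 4 or May replicate 3 or 7 was left out. It was 0.418, with a difference of 1.52, without slide 3, and 0.0937 with only the 12 arrays in the fit. In August the same probe had a mean of -6.01 ± 0.65 (n = 6), and in January and March means of 3.97 ± 1.44 (n = 6) and 3.23 ± 1.79 (n = 7). The difference between August and March was -9.23 ± 0.98 (SE), while January and March differed by 0.74 ± 0.98 (adjusted p = 0.549).

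**Figure D2:**
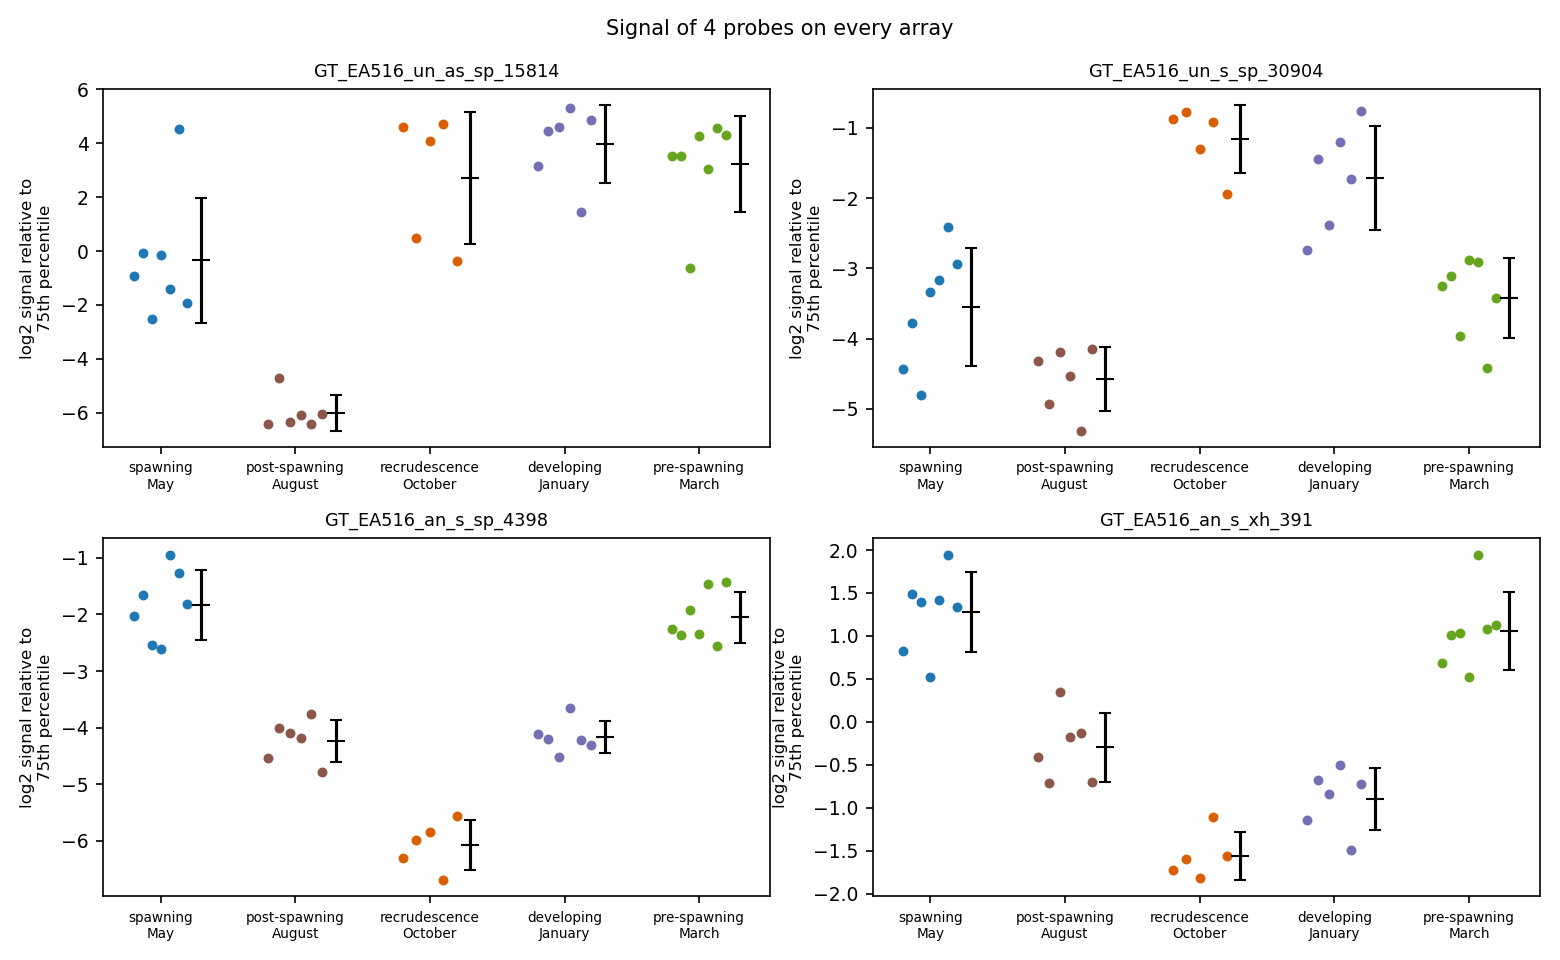
Each panel shows 1 probe, each point 1 array, in calendar order from May to March, with the mean ± SD of the stage as a black bar, and the vertical axis gives log2 signal minus that of the array's 75th percentile. Points of October lie below all May points for GT_EA516_an_s_sp_4398 and GT_EA516_an_s_xh_391 and above them for GT_EA516_un_s_sp_30904, while October and May overlap for GT_EA516_un_as_sp_15814.

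The rule for naming passed over 8 called excesses and 1 called deficit with larger fitted differences. None of these probes was well above background on all 12 arrays, and their fitted differences are not ranked here against those of the named probes.

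Most of the probes in excess in October testis were also higher in August and in January than in March. This was read from comparisons of August and of January with March, whose means hold no October or May array. The spread behind them was estimated in the shared fit of all 31 arrays. These calls are therefore not independent of those between October and May. Of the 1278 probes higher in October than in May, 1038 (81.2%) were also higher in August than in March, against 46.3% of all tested probes, and 130 (10.2%) were lower, against 27.6%. In January 993 of them (77.7%) were higher than in March, against 33.1% of all, and 33 (2.58%) were lower, against 19.3%. In both months 896 (70.1%) were higher than in March, as were 26.4% of all tested probes. The 1038 probes made up 25.9% of all probes higher in August than in March, and the 993 made up 34.7% of those higher in January. Under the other scalings the shares of the excesses were 77.4% to 85.3% for August and 73.4% to 86.7% for January, against 39.9% to 43.6% and 26.9% to 38.8% of all tested probes. The highest shares of the excesses came from spike-in scaling, with 143 excesses, where the others had 1099 to 1167. No test of these overlaps was made, and the August and January comparisons share the March arrays. Without slide 3, 585 excesses were higher in August and 497 higher in January, of 711, and the shares of all tested probes were not computed for that fit.

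A smaller share of the deficits was called the same way in the other months, against backgrounds that were smaller too. Of the 1134 probes lower in October than in May, 555 (48.9%) were lower in August than in March, against 27.6% of all, and 256 (22.6%) were higher, against 46.3%. In January 525 (46.3%) were lower than in March, against 19.3%, and 64 (5.64%) were higher, against 33.1%. In both months 381 (33.6%) were lower, as were 14.4% of all tested probes, and 220 (19.4%) passed no threshold in either month. Among the 164 deficits of 2-fold or more, 55 (33.5%) passed no threshold in either month, against 18.1% of all probes, and among the 261 excesses of that size 12 (4.60%) did so. Under the other scalings the shares of the 1134 deficits' counterparts were 35.9% to 56.0% for August and 22.4% to 53.6% for January, against 20.4% to 33.4% and 4.03% to 24.3% of all tested probes. The lowest shares came from spike-in scaling, with 170 deficits, where the others had 1059 to 1266. Without slide 3, 283 deficits were lower in August and 270 lower in January, of 558, and without slide 2 the January number was 344, of 751. The shares of all tested probes were not computed for these fits.

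**Figure D3:**
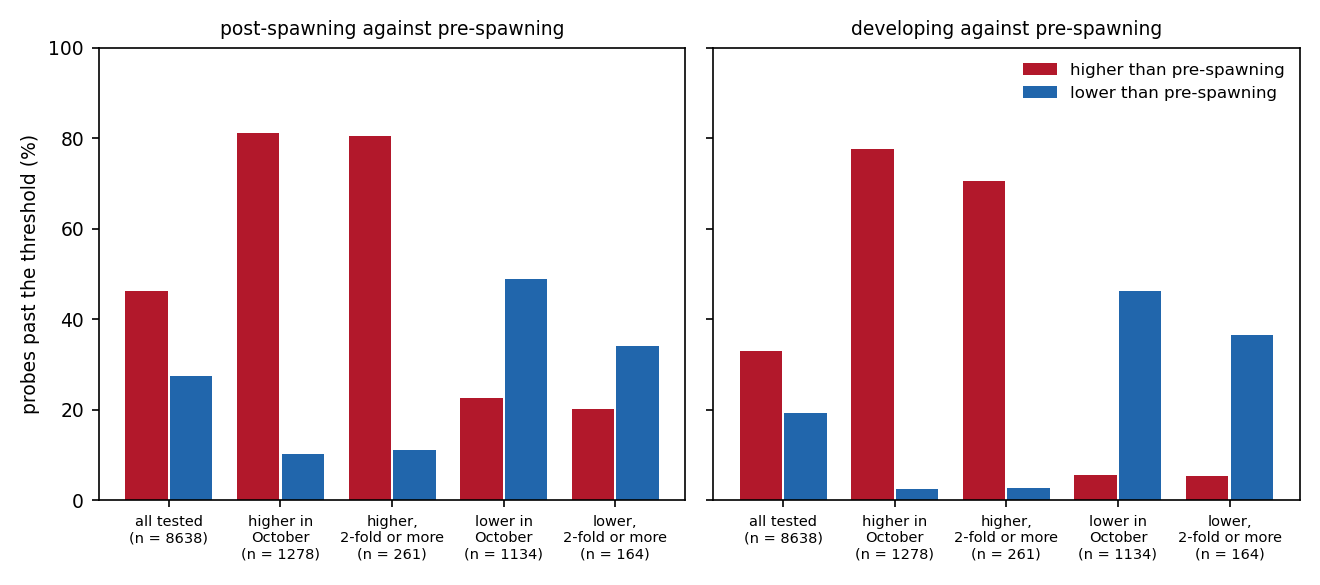
Bars give the percentage of probes higher (red) or lower (blue) than in pre-spawning testis at an adjusted p under 0.05, in post-spawning testis (left) and in developing testis (right), for all tested probes and for the probes called between October and May. Of the probes higher in October, 81.2% and 77.7% were higher than in March in the 2 panels, against 46.3% and 33.1% of all tested probes.

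Sizes in those other months were read for the same sets. For the 1278 excesses the median difference from March was 1.26 on the log2 scale in August and 0.72 in January, against 0.28 and 0.14 over all tested probes. For the 261 excesses of 2-fold or more it was 2.86 and 1.19. For the 1134 deficits it was -0.26 in August and -0.27 in January, and for the 164 deficits of 2-fold or more -0.09 and -0.28. The excesses stood farther from March in August than in January.

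The place of October in the year is given as a description, since October and May values chose the probes. The October mean lay between those of May and August for 1035 of the 1278 excesses (81.0%), against 55.2% of all tested probes, and the August mean was the highest of the year for 897 (70.2%), against 46.5%. For the 1134 deficits, October lay between May and August for 482 (42.5%) and beyond August for 293 (25.8%), against 55.2% and 10.3% of all tested probes. In the other 359 (31.7%) August stood on the opposite side of May, near the 34.5% of all. October had the lowest mean of the year for 509 of the deficits (44.9%) and for 103 of the 164 deficits of 2-fold or more (62.8%), against 18.8% of all tested probes. It had the highest mean for 155 of the excesses (12.1%), against 9.00% of all tested probes. May had the highest mean for 506 of the deficits (44.6%), against 16.0% of all. May had the lowest mean for 814 of the excesses (63.7%), against 22.9%. The sets were chosen for October below or above May, and all tested probes were not. The shares between May and August, beyond August, and for the lowest and highest mean therefore have no like background here. No conclusion is drawn from them. For the 261 large excesses October lay between May and August in 214 (82.0%).

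**Figure D4:**
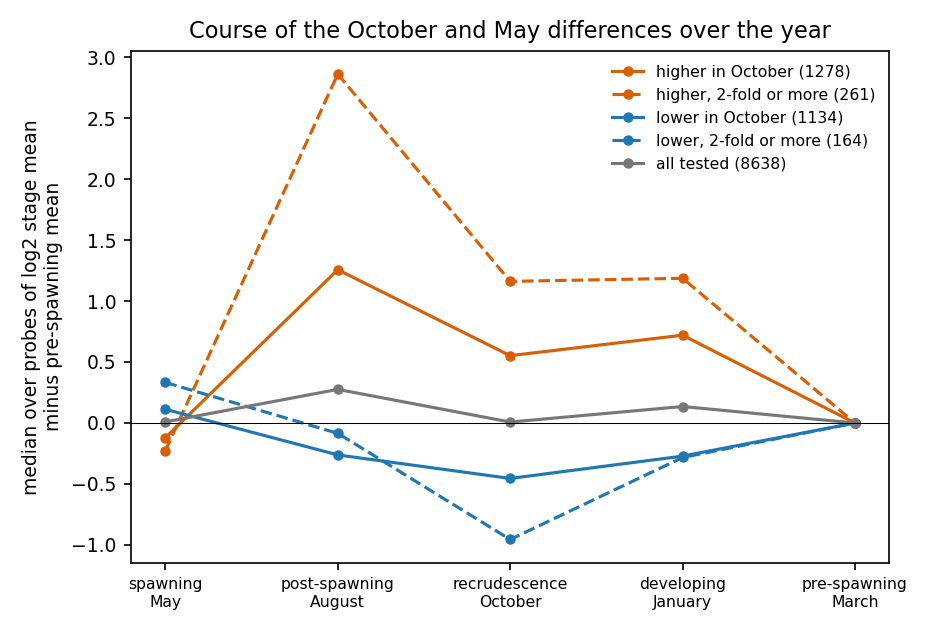
Lines give, for each set of probes, the median log2 difference of a stage mean from the pre-spawning (March) mean, in calendar order, with March at 0 by definition. The October and May points were used to choose the sets, and the August and January points were not. The excesses (orange) stand at 1.26 in August and 0.72 in January, and the deficits (blue) at -0.26 and -0.27.

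Single October arrays were placed on the line that leads from the March mean, set to 0, to the August mean, set to 1. Their positions were 0.0707, 0.0817, 0.139, 0.119 and 0.161. The May arrays ran from -0.0284 through a median of 0.00768 to 0.0768. October arrays lay higher with 1 overlap, since May replicate 2 stood above October replicate 1. The means were 0.114 ± 0.038 (SD, n = 5) and 0.00986 ± 0.0357 (n = 7), a difference of 0.104 (two-sided exact permutation test over 792 splits, p = 0.00253, adjusted p = 0.00631). Without slide 3 the difference was 0.0857, with an adjusted p of 0.0595 by the exact permutation test over the fewer arrays. On this line the January arrays stood at 0.230 to 0.423, above every October array. A raised position on it is therefore not particular to August.

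On the corresponding line from March to January the months were fully separated. Each line has its own unit, the distance between its end points, so that sizes of differences are not comparable between lines. The October arrays stood at 0.200, 0.284, 0.415, 0.329 and 0.348, and the May arrays ran from -0.0548 through a median of -0.0162 to 0.0681. No May array reached the lowest October array. The means were 0.315 ± 0.080 (SD, n = 5) and -0.00126 ± 0.0436 (n = 7), a difference of 0.316 with an exact p of 0.00126, the smallest these arrays allow, and an adjusted p of 0.00631. The May means lay at the March position on both lines to within 1 SD. Both lines start from the same March arrays and are not independent of each other. On the line to January the August arrays themselves stood at 0.985 to 1.32, and the January arrays at 0.718 to 1.30. A high position on it is therefore not particular to January.

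**Figure D5:**
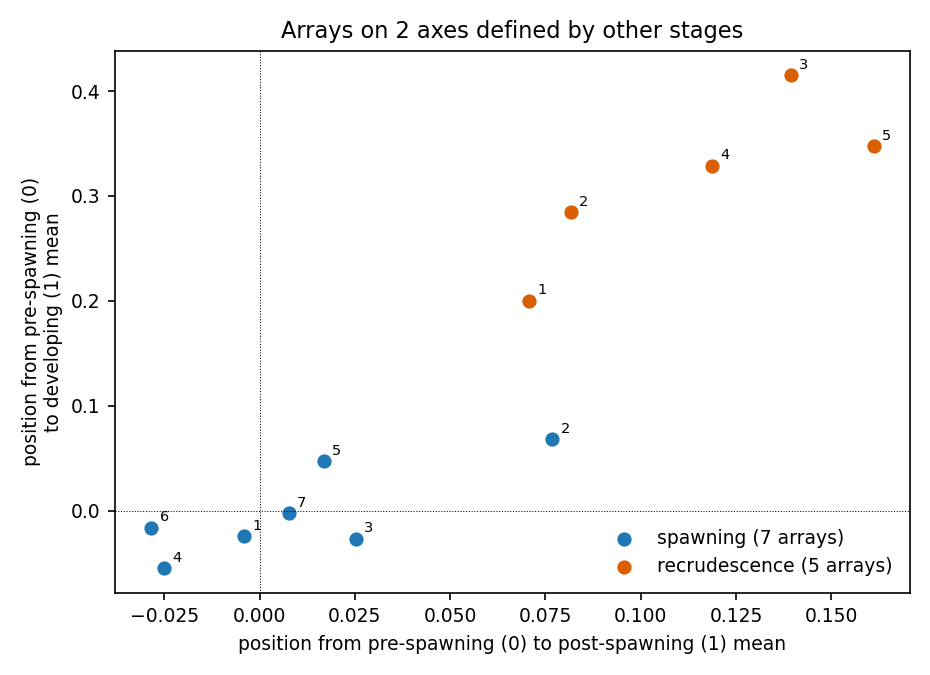
Points are the 5 recrudescence (orange) and 7 spawning (blue) arrays, numbered by replicate, at their position from the March mean (0) to the August mean (1) on the horizontal axis and from the March mean (0) to the January mean (1) on the vertical axis. The axes use no October or May array. October arrays lie between 0.200 and 0.415 on the vertical axis and May arrays between -0.0548 and 0.0681.

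Over all tested probes the median SD between arrays was 0.26 in October and 0.27 in May on the log2 scale. For the 261 excesses of 2-fold or more the median SD was 0.39 in October and 0.53 in May, and 63 of them (24.1%) had an SD more than 2 times larger among May arrays, against 13.8% of all tested probes. For 12 (4.60%) it was more than 2 times larger among October arrays, against 8.94% of all. These probes were dimmer in May, with a median level of -5.33 against -3.83 in October, and dim probes vary more. The part of the level in this was not tested. For the 164 large deficits the median SD was 0.47 in October and 0.49 in May, at median levels of -4.64 and -3.17.

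The probe names carry fields that the sources used here do not explain, and the calls were counted by them as a description. Among 6219 probes with the field "an", 1047 (16.8%) were higher and 788 (12.7%) lower in October. Among 2402 probes with the field "un", 227 (9.45%) were higher and 344 (14.3%) lower, so that the balance was opposite. Both balances kept their direction under the 5 other scalings and background corrections. At 2-fold or more the balance was not opposite, with 179 higher and 88 lower for "an" and 81 and 76 for "un". The "un" probes were dimmer, with a median level of -3.56 against -1.75. Probes with the fields "s" and "as" differed little, with 15.3% and 13.6% higher and 13.3% and 12.7% lower. Of 17 tested probes with a custom name, 4 (23.5%) were higher in October and 2 (11.8%) lower, against 14.8% and 13.1% of all tested probes.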

How the data were processed

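Testis RNA was extracted with Trizol, labelled in 1 colour with Cy3 and hybridised to Agilent oligonucleotide arrays, 1 array per sample, per the labels. Per the file headers, the deposited intensity of each spot came from Agilent Feature Extraction 10.7.1.1, which subtracts background within an array, and no normalisation between arrays was recorded. The authors' table of log2 values covers the same arrays and served as an alternative, and the sources used here do not state how it was normalised.

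From the deposited intensity, log2 values minus each array's 75th percentile over its 15208 non-control spots were averaged per probe. Left out were 426 spots with outlier flags, counted over all 31 arrays, of which 148 were on the 12 arrays. No spot was saturated. Of 9041 probes, 8638 were well above background (in at least a share of 0.5 of their spots) on at least 5 of 31 arrays and were tested, and 403 (4.46%) were left out. Stage means of all arrays were fitted with limma 3.58.1 in R 4.3.3 (lmFit, eBayes), with Benjamini-Hochberg adjustment over all tested probes at 0.05. Measures of whole arrays were compared by exact permutation tests over the 12 arrays, two-sided and adjusted over 5 measures. The fit was tested on simulated data. The number of arrays limits the precision.

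Gene lists had been fixed for the case that probes were paired with genes, and gave no result. Named are the 2 largest excesses and 2 largest deficits among called probes well above background on all 12 arrays, with 1 direction after leaving out any array and on each of the 3 slides that hold both stages. These criteria were met by 1004 excesses and 985 deficits. The comparison, the lists and the tests were chosen with earlier results of these data known. In a model that kept the stages, limma found 0 probes that differed between the 4 slides, and 426 had an unadjusted p under 0.05. Alternatives were other scalings, another background correction, the authors' table, other filters, a fit of the 12 arrays alone, slide or replicate number as a block, array weights, a trend with intensity, and the omission of each slide or array.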

Additional observations from a re-analysis of the deposited data

Results flagged for a closer look

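Over 10 measures in each of the 2 stages, 20 groups of arrays were examined for an array that stood far from the others of its stage, and 1 was found, where chance gives about 1 in 20 groups. It was spawning replicate 6 for probe GT_EA516_un_as_sp_15814, at 4.54 on the log2 scale against -0.07 for the nearest May array. The gap took up a share of 0.654 of the range, above the critical value of 0.568. Without this array the difference between October and May was larger, at 3.87 (limma, adjusted p = 0.00234).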

How the results depend on the processing

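Among the differences between October and May, those on the line from March to January passed the threshold under all 20 alternatives tried for them, from 0.269 to 0.345 (adjusted p 0.00316 to 0.0446, exact permutation test). Spike-in scaling and normexp background correction were not tried on the 2 lines or on the share of signal in the brightest 100 probes. Probes GT_EA516_an_s_sp_4398, GT_EA516_an_s_xh_391 and GT_EA516_un_s_sp_30904 kept their direction and call under all 29, and GT_EA516_un_as_sp_15814 kept its direction under 29 and its call under 17. The naming rule had required 1 direction after leaving out any of the 12 arrays and within each slide that holds both stages. Direction without 1 array and within those slides was therefore fixed in advance. The count of 2412 probes moved by less than 1.5 times under 25 of 29 alternatives. It was 313 with spike-in scaling, 1269 without slide 3, and with the replicate block 1124 by the numbers of the titles and 1024 by those of the descriptions, in fits of the 12 arrays. Deviations from the stage means of same-numbered arrays correlated between -0.116 and 0.0393. The numbers differ between titles and descriptions, and these correlations gave no sign that either numbering pairs the arrays. They cannot exclude a shared handling of same-numbered arrays. Leaving out 1 array gave 2004 to 2314. The count of at least 2-fold differences, 425, was 238 with spike-in scaling, 174 with normexp on the median spot and background signals, 252 with a filter that kept only probes detected on each of the 12 arrays, so that fewer were tested, and 388 to 472 without 1 array. The median difference was -0.095 with spike-in scaling, where each array's brightness enters the values. It was -0.0213 to 0.0135 without 1 array. Without slide 3, where 3 recrudescence and 5 spawning arrays remain, the difference on the line from March to August was 0.0857 (adjusted p 0.0595), and the share of signal in the brightest 100 probes differed by 2.71 percentage points (adjusted p 0.0446). The latter difference was 0.0663 (adjusted p 0.0189) with quantile normalisation, which gives all arrays nearly 1 distribution. Leaving out 1 array gave 0.0927 to 0.116 and 1.17 to 1.97. Without slide 3 the excesses also higher in August and January numbered 585 and 497, and the deficits also lower 283 and 270. Without slide 2 the latter was 344. Without 1 array these 4 counts ran from 871 to 1053, 840 to 1020, 426 to 571 and 419 to 539, among 1076 to 1271 excesses and 890 to 1127 deficits. Shares of all tested probes were not computed without a slide or an array, so that these counts stand beside no background. The probe detected in October alone became 1 to 3 probes without 1 array and 0 when all spots of a probe had to be well above background, and 0 to 1 probes were detected in May alone. The alternatives for the overlaps with other months and for detection in 1 month, and the scaling checks of groups of probes, were chosen after seeing the data. The causes were not tested. Probes near background are known less well, and 403 were not tested.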
